A study of Homo sapiens with 3 samples.

Results

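The retinoid genes described here are 10 of the 60504 genes in an RNA-Seq expression table of DLD1 cells, an established human colorectal cancer line. They are RARRES1, RARRES2, RARA, RARB, RARG, CYP26A1, CYP26B1, DHRS3, CRABP2 and ALDH1A3, matched by their Ensembl identifiers. The set was chosen by its link to retinoids, after RARRES2 had been seen to be lower in both knockout clones, so the RARRES2 values are a description that carries no test. The question put to the other 9 genes was whether they changed with RARRES2.

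The libraries were 1 of wild type DLD1 control cells and 2 of BEX2-/- DLD1 cells, labelled KO1 and KO2 and called clone 1 and clone 2 here. BEX2 is a brain-expressed X-linked gene that was knocked out by CRISPR/Cas9. Apart from the knockout the groups carry the same labels, and no treatment or time is given. The study screened its clones by sequencing, but neither the labels nor its methods say whether KO1 and KO2 are separate clones or separate cultures of 1 line. Differences between them may therefore be between clones or between cultures, the knockout and the history of a clone cannot be told apart, and 1 control library gives no spread among controls.

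Values were deposited as FPKM, the fragments of a gene divided by the length of its exons and by the size of the library. FPKM multiplied by exon length and depth gave whole reads for all 10 genes. The depths recovered in this way were 47458850 reads in the control, 35593989 in clone 1 and 47722382 in clone 2, so that 1 read on a gene of 1 kb was worth 0.0210 to 0.0281 FPKM. The targeted gene, BEX2, had a value of 0 in each library, the control included, and so does not check the labels. The study describes BEX2 protein as relatively high in DLD1 beside other colorectal cancer lines. The difference from these RNA values was not tested. The 5 epithelial markers EPCAM, CDH1, KRT8, KRT18 and KRT19 summed to 1563 FPKM in the control, 1600 in clone 1 and 1831 in clone 2. The 8 fibroblast, leukocyte and endothelial markers lay at 0.793 FPKM or below, with PTPRC and CDH5 at 0 in every library.

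Retinol reaches cells on the carrier RBP4 and is oxidised to retinal and then to retinoic acid, the latter step by ALDH1A enzymes such as ALDH1A3, while DHRS3 turns retinal back into retinol. CRABP2 carries retinoic acid to the nuclear receptors RARA, RARB and RARG, which act on DNA as pairs with an RXR partner, and CYP26A1 and CYP26B1 break retinoic acid down. RARRES1 and RARRES2 were named as genes that respond to retinoids acting through these receptors, and RARRES2 encodes chemerin, a secreted protein that attracts immune cells. In the gut, retinoic acid shapes epithelial differentiation and immune tolerance.

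Receptor pairs bind direct repeats of a short half-site, and the repeat upstream of RARB with a spacing of 5 bases is the textbook example. The promoter windows of the 10 genes, 18 windows of 300 bases from RefSeq on GRCh38.p14, were read for the half-site AGGTCA and for 3 close variants of it, of which AGTTCA and GGTTCA make up the RARB repeat while GGGTCA is the form found in RARRES2, on both strands and with exact letters, as direct repeats with spacings of 0, 1, 2 or 5 bases. The spacing of 0 was added after the sequences were seen, and with spacings of 1, 2 or 5 bases RARRES2 held no repeat. The sequences shown are those that hold a repeat of any of these spacings. They are written 5′ to 3′ along the strand of the gene, with the half-sites of the repeat in capitals.

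RARRES2, chr7:150341675-150341879, minus strand, 205 bases upstream of the RARRES2 exons: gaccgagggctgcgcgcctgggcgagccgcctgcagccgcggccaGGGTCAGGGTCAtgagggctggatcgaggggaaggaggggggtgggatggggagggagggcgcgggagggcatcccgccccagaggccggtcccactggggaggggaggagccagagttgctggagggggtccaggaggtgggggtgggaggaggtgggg
RARB, chr3:25428013-25428262, plus strand, the 250 bases before a start site: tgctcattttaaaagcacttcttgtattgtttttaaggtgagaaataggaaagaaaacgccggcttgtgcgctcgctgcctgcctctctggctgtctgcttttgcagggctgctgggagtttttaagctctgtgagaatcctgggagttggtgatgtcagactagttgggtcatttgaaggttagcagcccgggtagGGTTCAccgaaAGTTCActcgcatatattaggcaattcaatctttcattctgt
CYP26A1, chr10:93073803-93073819, plus strand, the repeat alone: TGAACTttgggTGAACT

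The RARB repeat began 53 bases before the start site. The CYP26A1 repeat began 90 bases before the second of its RefSeq start sites and reads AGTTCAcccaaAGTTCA on the other strand, and it lies in the first exon, in the 5′ UTR, of a CYP26A1 transcript that starts further upstream. Both have a spacing of 5 bases, which 0.0883% of all 35116 promoter windows hold, in 29 of 27305 genes. In RARRES2 the half-sites abut, 205 bases before the start site, an arrangement in 0.159% of windows and 54 genes. Because that spacing was added with the sequence in view, its share says nothing about RARRES2 as a receptor target. No window of the other 7 genes held a repeat with these letters. A match is a description of letters and shows no binding.

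RARRES2 (ENSG00000106538, chr7:150338317-150341674, minus strand, in GENCODE release 29 on GRCh38, as for all genes here) was listed at 10.2 FPKM in the control, 3.95 in clone 1 and 4.40 in clone 2. These values rest on 929, 270 and 403 reads. Both clones lay below the control and close to each other, with a clone mean of 4.17 ± 0.316 FPKM (SD, n = 2). The control level was 2.58 times that of clone 1 (95% interval 2.25 to 2.97) and 2.32 times that of clone 2 (2.06 to 2.61), where intervals here are exact Clopper-Pearson intervals on the reads and cover counting error only. Clone 2 stood at 1.11 times clone 1, with an interval of 0.952 to 1.30 that includes equality. None of the exons of RARRES2 is shared with another annotated gene. In bulk libraries, fewer cells with a transcript and less of it per cell cannot be told apart.

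RARRES1 (ENSG00000118849, chr3:158696892-158732696, minus strand), a membrane protein gene named for the same kind of response, was near the limit of measurement. It had 0.207 FPKM in the control, 0.741 in clone 1 and 0.2999 in clone 2, from 22, 59 and 32 reads. Clone 1 was the high library, at 3.58 times the control (2.16 to 6.13), whereas the ratio of clone 2 to the control was 1.45 with an interval of 0.815 to 2.61. RARRES1 thus lay in the opposite direction to RARRES2 in clone 1 and was not distinguishable from the control at this depth in clone 2. Of its exon bases 14.8% are shared with other annotated genes, MFSD1 among them, and the library kit does not mark strand.

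**Figure D1:**
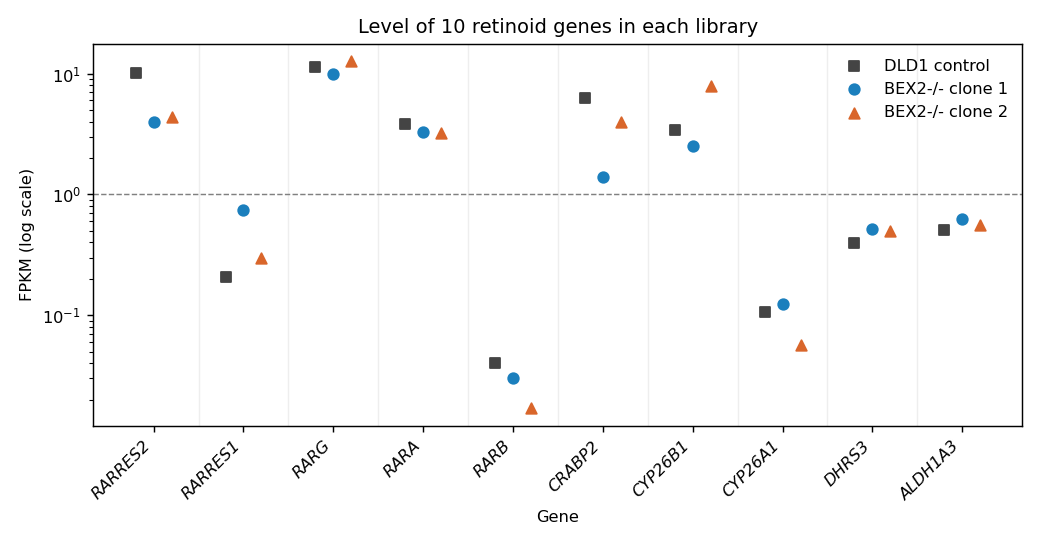
FPKM on a log axis for each of the 10 retinoid genes in the control library (squares), clone 1 (circles) and clone 2 (triangles), with 1 point per library and a dashed line at 1 FPKM. RARRES2 sits at 10.2 FPKM in the control and at 3.95 and 4.40 in the clones, while 5 genes lie under the line in every library.

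Among the retinoic acid receptors, RARG was the main transcript. RARG (ENSG00000172819, chr12:53210567-53232980, minus strand) had 11.3 FPKM in the control, 9.93 in clone 1 and 12.6 in clone 2, and was the highest of the 10 genes in every library. It was slightly lower in clone 1, at 0.880 times the control (0.828 to 0.934), and slightly higher in clone 2, at 1.12 times (1.06 to 1.18). RARG made up 74.4%, 75.1% and 79.7% of the summed FPKM of the 3 receptors in the control, clone 1 and clone 2.

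RARA (ENSG00000131759, chr17:40309192-40357643, plus strand) had 3.84 FPKM in the control, 3.27 in clone 1 and 3.19 in clone 2. Both clones were a little below the control, at 0.850 (0.762 to 0.947) and 0.831 (0.752 to 0.918) of its level, and a change of this size is small beside the 2-fold threshold. RARA shares 17.9% of its exon bases with other genes, mainly the antisense RARA-AS1, which had 0.165, 0.345 and 0.691 FPKM. RARB (ENSG00000077092, chr3:25174332-25597932, plus strand), itself a target of the receptors through the repeat shown above, was the lowest of the 10 genes in every library, with 7, 4 and 3 reads, or 0.0399, 0.0304 and 0.0170 FPKM. At that depth a difference between libraries was not detectable, the interval of clone 1 to control running from 0.164 to 2.997.

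CRABP2 (ENSG00000143320, chr1:156699606-156705816, minus strand), the binding protein that delivers retinoic acid to the receptors, had 6.30 FPKM in the control, 1.40 in clone 1 and 3.98 in clone 2, from 329, 55 and 209 reads. Both clones were below the control, clone 1 far more so. The control level was 4.49 times that of clone 1 (3.36 to 6.08) and 1.58 times that of clone 2 (1.33 to 1.89), and clone 2 was 2.83 times clone 1 (2.10 to 3.89). The clone mean of 2.69 ± 1.82 FPKM (SD, n = 2) shows how far apart the clones were. FABP5, which can carry retinoic acid to another nuclear receptor, was more abundant, at 51.0, 57.2 and 40.3 FPKM, so that CRABP2 amounted to 12.4%, 2.46% and 9.87% of the FABP5 level.

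CYP26B1 (ENSG00000003137, chr2:72129238-72148038, minus strand), which breaks retinoic acid down, had 3.38 FPKM in the control, 2.53 in clone 1 and 7.85 in clone 2, from 804, 451 and 1879 reads. The clones lay on opposite sides of the control, clone 1 at 0.748 times (0.665 to 0.840) and clone 2 at 2.32 times its level (2.14 to 2.53). Clone 2 was 3.11 times clone 1 (2.80 to 3.45), and the clone mean was 5.19 ± 3.77 FPKM (SD, n = 2). CYP26A1 (ENSG00000095596, chr10:93073475-93077890, plus strand), the family member most used as a marker of retinoic acid signalling, had only 15, 13 and 8 reads, or 0.106, 0.123 and 0.0564 FPKM. Its intervals against the control, 0.506 to 2.60 in clone 1 and 0.195 to 1.33 in clone 2, both include equality. CYP26B1 gave 95.4% to 99.3% of the summed FPKM of the pair.

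DHRS3 and ALDH1A3, the genes of the set whose enzymes act on retinal, in opposite directions, were low in every library. DHRS3 (ENSG00000162496, chr1:12567910-12617731, minus strand) had 0.396 FPKM in the control, 0.518 in clone 1 and 0.497 in clone 2. ALDH1A3 (ENSG00000184254, chr15:100877714-100916626, plus strand) had 0.504, 0.623 and 0.555 FPKM in the same order. For both genes the clones were above the control by less than counting error allows to be told, since the intervals for DHRS3 were 0.890 to 1.93 and 0.875 to 1.81 and those for ALDH1A3 0.965 to 1.59 and 0.870 to 1.40. ALDH1A3 shares 28.6% and CYP26A1 25.2% of its exon bases with other annotated genes, and DHRS3 shares none.

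**Figure D2:**
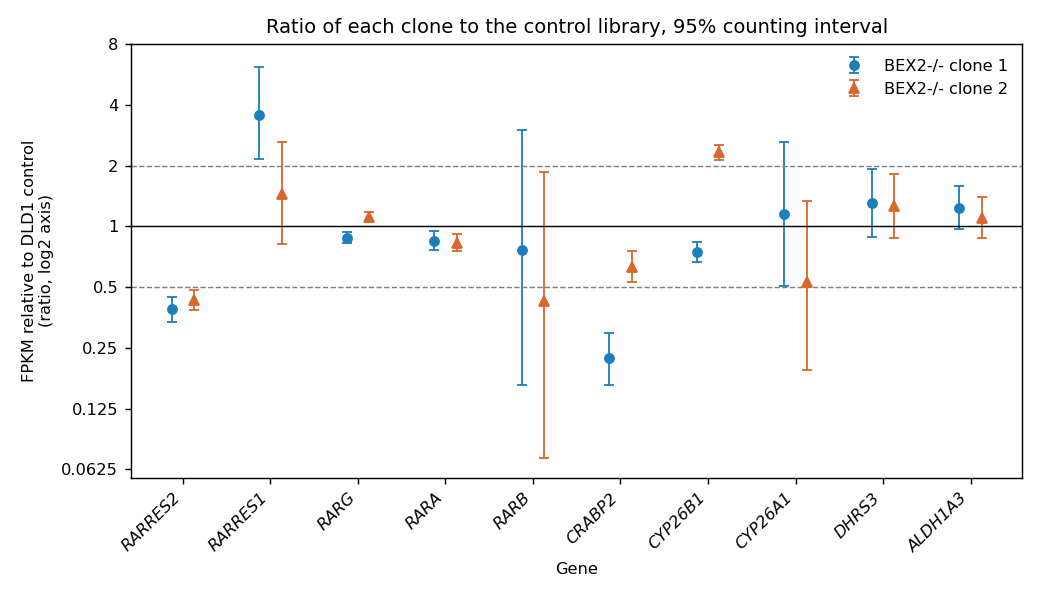
Ratio of FPKM in clone 1 (circles) and clone 2 (triangles) to the control library for the 10 genes, on a log2 axis, with exact 95% counting intervals as bars, a solid line at 1 and dashed lines at 2-fold. RARRES2 lies under the lower dashed line in both clones, CRABP2 only in clone 1, and CYP26B1 is above the upper one only in clone 2. The bars are widest for RARB and CYP26A1, which had 3 to 15 reads, and RARRES1 is above the upper line in clone 1 from 59 reads. RARB in clone 2 is also under the lower dashed line, at 0.426 from 3 reads, with a bar from 0.0711 to 1.87.

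Genes were then counted on the log2(FPKM + 1) scale, which understates the change of low genes, for genes whose level, averaged between the control and the mean of the clones, reached 1 FPKM, and a gene counted from a 2-fold change on. Of the 10 genes 5 passed the filter, namely RARRES2, RARA, RARG, CRABP2 and CYP26B1, and 11675 genes passed in all. In clone 1, RARRES2 (-1.18) and CRABP2 (-1.60) were past 2-fold, both lower, beside 2.02% of all genes. In clone 2, RARRES2 (-1.05) was lower and CYP26B1 (1.02) higher, beside 2.06% of all genes. RARRES2 had been chosen for being lower in both clones, so its place in these counts carries no information. The values for RARRES2 and CYP26B1 in clone 2 are just past the threshold, and the nearest value inside it among the genes that passed was -0.55, for CRABP2 in clone 2.

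RARRES2 was the single gene of the 10 that was past 2-fold one way in both clones, as were 0.325% of all genes and, among protein-coding genes alone, a background added after the values were seen, 0.0398% or 4 of 10050. Since RARRES2 was selected on this contrast, nothing is read from these shares. No other retinoid gene among the 10 followed it past 2-fold in both clones. CRABP2 came nearest, at -1.60 and -0.55. The clones share their control library, so their ratios are not independent of each other.

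Between the clones, CRABP2 was higher in clone 2 than in clone 1 by 1.05 and CYP26B1 by 1.33 on the log2(FPKM + 1) scale. These 2 of the 5 genes were past 2-fold, beside 4.19% of all genes. The median ratio of the 5 genes was -0.31 in clone 1 and -0.21 in clone 2, against 0.04 and -0.01 for all genes that passed. These medians include RARRES2, which was chosen for being lower, so no shift of the set is read from them. The remaining genes lay at -1.60 (CRABP2), -0.31 (CYP26B1), -0.18 (RARA) and -0.17 (RARG) in clone 1. In clone 2 they lay on both sides of the control, at -0.55, 1.02, -0.21 and 0.15 in the same order. Between the clones the median was 0.32, higher in clone 2, against -0.05 for all genes, again with RARRES2 included. The order of the levels differed as well. CYP26B1 was below CRABP2 in the control, at 0.536 times its FPKM, and above it in clone 1 and clone 2, at 1.80 and 1.97 times.

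**Figure D3:**
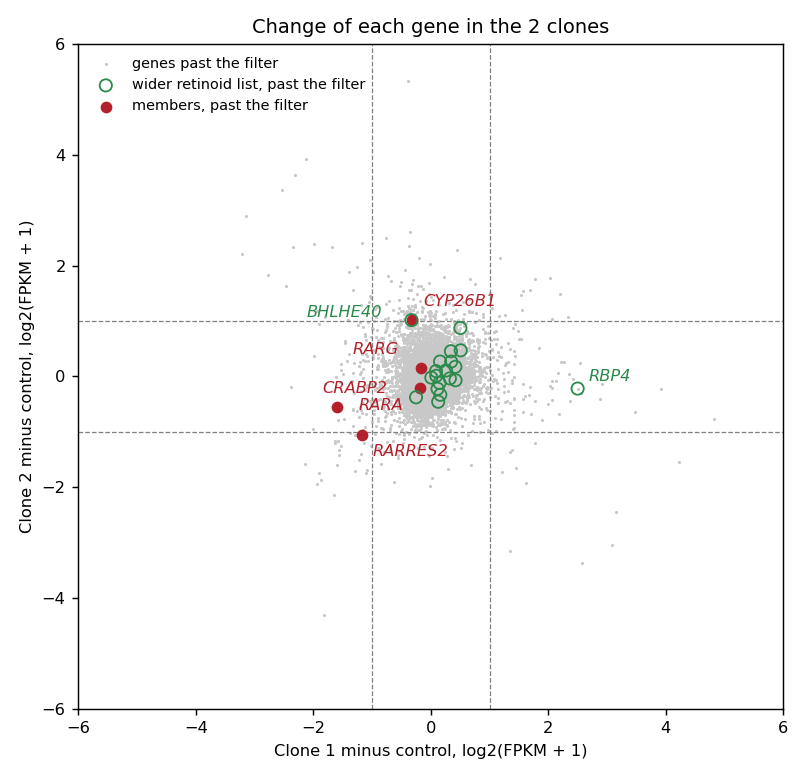
Change from the control in clone 1 (horizontal) and clone 2 (vertical) on the log2(FPKM + 1) scale for the 11675 genes that passed the filter (grey), with the 5 retinoid genes that passed (red) and 19 genes of a wider retinoid list (green rings), and dashed lines at 2-fold. RARRES2 at -1.18 and -1.05 is the only red or green point past the lines one way in both clones.

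A wider list of 46 further genes of retinoid transport, metabolism, receptors and response was looked at in the same way. Of these 19 passed the filter and 27 did not, and 9 were at 0 in every library, among them the storage enzyme gene LRAT, the plasma carrier gene TTR, CRABP1, CYP26C1 and the receptor gene RXRG. None of the 19 moved past 2-fold one way in both clones, which at the share of 0.325% among all genes says nothing about the list. The median ratio of the 19 genes was 0.16 in clone 1, with 17 above 0, beside 0.04 for all genes, of which 6566 of 11675 were above 0. In clone 2 it was 0.01, with 10 above 0, beside -0.01 for all genes, of which 5654 were above 0.

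RBP4 (ENSG00000138207, chr10:93591687-93601744, minus strand), the retinol carrier of plasma, had 1.19 FPKM in the control, 11.4 in clone 1 and 0.882 in clone 2, from 82, 588 and 61 reads. Clone 1 stood apart, at 9.56 times the control (7.58 to 12.2), whereas clone 2 was at 0.740 times (0.522 to 1.04). In the same direction, the intestinal markers VIL1 (3.61, 13.2 and 0.221 FPKM), CDH17 (34.9, 78.7 and 29.5) and CDX2 (33.3, 43.2 and 24.0) were highest in clone 1 and lowest in clone 2. Together they summed to 71.8, 135 and 53.7 FPKM in the control, clone 1 and clone 2. Their part in the differences between the clones was not tested.

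BHLHE40 (ENSG00000134107, chr3:4979116-4985323, plus strand), a transcription factor gene also known as a retinoic acid response gene, had 2.48 FPKM in the control, 1.77 in clone 1 and 6.04 in clone 2. Like CYP26B1 it was lower in clone 1, at 0.714 times the control (0.608 to 0.836), and higher in clone 2, at 2.43 times (2.18 to 2.72). Besides BHLHE40, only GPRC5A passed the filter among the other responsive genes of the wider list. GPRC5A had 13.9, 20.2 and 19.6 FPKM and was above the control in both clones, opposite to RARRES2. Its ratios were 1.45 (1.40 to 1.51) in clone 1 and 1.41 (1.36 to 1.46) in clone 2. The partner receptors and coregulators that passed the filter stayed within 2-fold of the control. RXRA, RXRB, NCOR1, NCOA1, NCOA2 and NCOA3, which passed the filter, ranged from 0.01 to 0.42 in clone 1 and from -0.07 to 0.45 in clone 2 on the log2(FPKM + 1) scale.

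**Figure D4:**
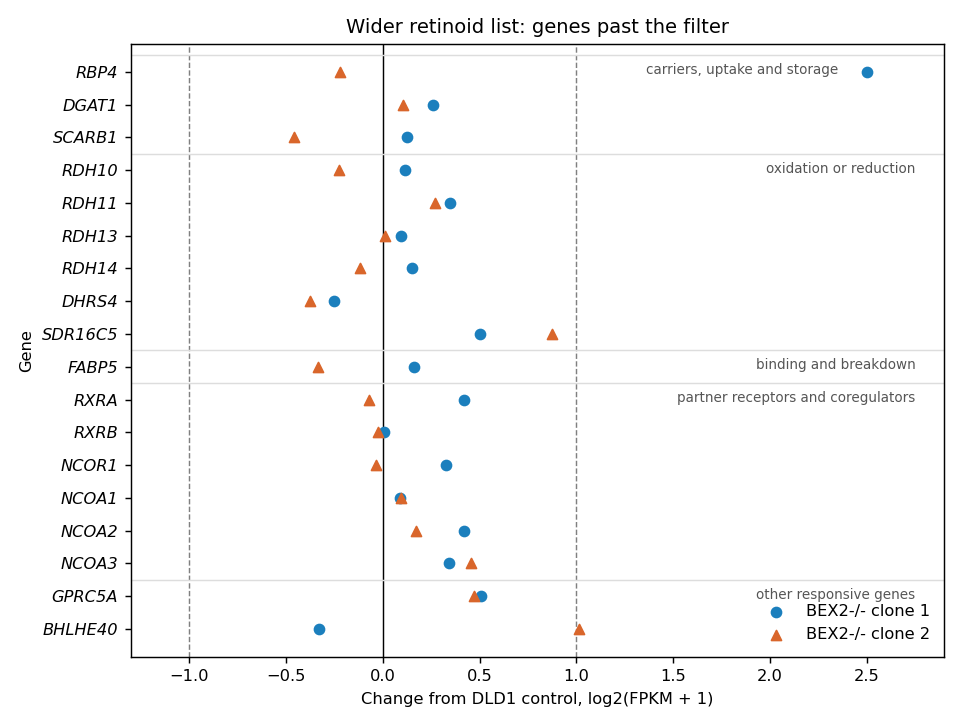
Change from the control on the log2(FPKM + 1) scale in clone 1 (circles) and clone 2 (triangles) for genes of the wider retinoid list that passed the filter, grouped by role, with dashed lines at 2-fold. RBP4 in clone 1, at 9.56 times the control without the pseudocount, and BHLHE40 in clone 2, at 1.02 on this scale, are the points past a line.

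Several genes of retinol and retinal oxidation or reduction were well expressed, such as RDH10 at 5.85, 6.42 and 4.87 FPKM and RDH14 at 5.92, 6.67 and 5.37 FPKM in the control, clone 1 and clone 2. Larger ratios were found in this group, mostly among genes with few reads, and the following were picked with their values in view. DHRS9, an epithelial retinol dehydrogenase gene, had 17 reads in the control, 203 in clone 1 and 86 in clone 2, or 0.0955, 1.52 and 0.481 FPKM. Both clones were above the control, at 15.9 times (9.70 to 27.9) and 5.03 times (2.97 to 9.03), although the gene did not pass the filter. SDR16C5, a retinol dehydrogenase gene that passed, had 2.05, 3.32 and 4.59 FPKM from 319, 388 and 718 reads. Its ratios were 1.62 (1.39 to 1.89) and 2.24 (1.96 to 2.56).

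Other enzymes of the group were highest in clone 1, with few reads in the control and in clone 2. AKR1B10, an aldehyde reductase that acts on retinal, had 21, 69 and 6 reads in the control, clone 1 and clone 2. AKR1C3 had 1, 51 and 3 reads in the same order. ALDH1A1, a retinal dehydrogenase gene, had 10, 53 and 0 reads. The intestinal markers given above had their highest values in the same library, and their part in these differences was not tested.

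The chemerin receptors, to which the RARRES2 product binds, did not pass the filter. CMKLR1, the receptor through which chemerin attracts cells, was at 0 reads in every library. CMKLR2, also named GPR1, had 0.766 FPKM in the control, 1.38 in clone 1 and 1.01 in clone 2. CCRL2, which binds chemerin without signalling, had 0.716, 0.872 and 1.11 FPKM.

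The genes whose pair of ratios lay nearest to that of RARRES2 over the 3 libraries, by Euclidean distance on the log2(FPKM + 1) scale, were AC108673.3, RNA5SP18, SNORA66, AL139099.3 and AF064858.2. Their distances were 0.0528 to 0.206, and none is annotated as protein-coding. They are short, with 114 to 335 nt of exons against 1921 nt in RARRES2, and had 3.21 to 6.65 FPKM in the control. Their values thus rest on far fewer reads than those of RARRES2, and no counting interval was made for them. Among protein-coding genes, looked at after the values were seen, the nearest were LARGE2, IFITM2, FUT3, IGFBP4 and EFHD1, at distances of 0.364 to 0.488. IFITM2, an interferon-induced membrane protein gene, was the most abundant of these, with 191 FPKM in the control, 88.6 in clone 1 and 119 in clone 2. No member or gene of the wider list was among the nearest genes. Of the wider list 19 genes passed the filter, against 11597 candidate genes with a symbol. With so few listed genes among the candidates, their absence says nothing about the members or the wider list. The ranking also rests on the RARRES2 ratios for which that gene was chosen.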

How the data were processed

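Libraries were made with the TruSeq RNA kit, which does not mark strand, and the labels show the same run date and lane for all 3. The authors deposited FPKM per gene, and the submitters' processing notes name Trim Galore 0.3.7, STAR 2.5, Cufflinks 2.2.1, DESeq 1.22.1 and hg19. Identifiers of 56996 of the 60504 genes matched GENCODE release 29 on GRCh38, from which coordinates and exon lengths were taken. FPKM times merged exon length times depth gave whole reads, within 0.02, for 98.7% to 98.8% of values under 50 reads in genes with a single transcript and for 88.1% to 89.0% in others. Since the control group is 1 library, no test across genes was made, no count model was run and no p-value is given. Ratios used a pseudocount of 1 FPKM.

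The members, the wider list and the markers were chosen with earlier results of these data known. Genes named were the 10 members, genes of the wider list that passed the filter and were past 2-fold in any comparison, and the 5 genes nearest to RARRES2. Any other gene was named after its values had been seen. Alternatives were a pseudocount of 0.1 FPKM, median-ratio scaling, TPM scaling, no filter, a filter at 5 FPKM, a 1.5-fold threshold, no pseudocount with no filter, the omission of each clone and, added after the data were seen, protein-coding genes only. The calculations were tested on simulated data and used scipy 1.17.1 for intervals, pandas 2.3.3 and numpy 2.4.6 for tables, all under Python 3.11.15, and matplotlib 3.10.9 for plots. A few genes of the wider list enter its counts and medians but are not reported singly.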

Additional observations from a re-analysis of the deposited data

How the results depend on the processing

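With 1 control library and 2 clones, ratios cannot be set against a spread among controls, and intervals cover counting error only. RARRES2 remained the only member past 2-fold one way in both clones under every alternative that kept both clones, protein-coding genes alone included, and its mean log2 ratio then ranged from -1.29 to -1.11. Without clone 1 its ratio was -1.05. Without clone 1 or clone 2 the count of members was 2 in each case, with CYP26B1 or CRABP2 added, and for the wider list 1 in each case. The shares over all genes were then 2.15% without clone 1 and 2.18% without clone 2. A filter at 5 FPKM left 1 member in clone 1, 1 in clone 2 and 0 between the clones, since only 2 members passed it. The shares over all genes were then 1.32%, 1.59% and 3.53%. Without a pseudocount or a filter 4 of 10 members differed between the clones, RARRES1, CRABP2, CYP26A1 and CYP26B1, beside 18.9% of all genes. The wider list then gave 1 of 36 genes changed one way in both clones, DHRS9, beside 4.40% of all genes. TPM scaling also gave 1, out of 27, beside 1.81% of all genes. Counts of 1 at such shares say nothing about the list.

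The medians over the members, RARRES2 included, moved with the filter and with the pseudocount. For clone 1 the median was -0.41 with the pseudocount at 0.1 FPKM, -0.14 after scaling to TPM (8 members passed), -0.091 with no filter, -0.67 with the filter at 5 FPKM and -0.21 with no pseudocount and no filter. For clone 2 it was 0.18 with TPM scaling, 0.0083 with no filter, -0.45 with the filter at 5 FPKM and -0.063 with no pseudocount and no filter. Between the clones it was 0.32 as reported, 0.067 with TPM scaling, -0.020 with no filter, 0.22 with the filter at 5 FPKM and -0.046 with no pseudocount and no filter. The sign of the medians for clone 2 and between the clones therefore depends on these settings. No paired analysis was possible because the control has 1 library and the labels pair it with neither clone.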
